A study of Homo sapiens with 6 samples.

Results

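Genes for 9 proteins of branched-chain amino acid breakdown (MCCC1, MCCC2, BCAT1, BCAT2, BCKDHA, BCKDHB, DBT, IVD and AUH) were followed in C4-2B, a bone-metastatic derivative of the LNCaP prostate cancer cell line. They were taken by symbol, and all 9 were found in each of the 6 libraries, out of 17602 genes in the SR2211 tables, 16293 with XY011 and 22642 with ENZ. They were picked with their changes in these libraries already known, so every value below is a description and carries no test. RNA-seq had been run on 6 libraries in 3 experiments, each with 1 treated and 1 vehicle library. SR2211 (5 µM), an inverse agonist of the nuclear receptor RORγ, was set against the vehicle of its own experiment. XY011 (5 µM), known here only by its code name, had a separate vehicle, and so did enzalutamide (ENZ, 20 µM), a drug against prostate cancer. All cells, vehicles included, were kept in mostly charcoal-stripped serum, a setting meant to resemble castration-resistant disease, and were harvested after 48 h of exposure. Groups follow the titles. A single extraction text is given for the SR2211 and XY011 pairs, which names SR2211 and, where XY011 would stand, another code, and the text of the ENZ pair names SR2211.

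Leucine, isoleucine and valine are broken down mostly in mitochondria. An aminotransferase first removes the amino group, and the branched-chain keto acid dehydrogenase then commits the keto acids to oxidation. In the leucine branch, isovaleryl-CoA dehydrogenase (IVD) feeds 3-methylcrotonyl-CoA carboxylase, a biotin enzyme built from MCCC1 and MCCC2 subunits. The hydratase AUH acts next, and the path ends in acetyl-CoA and acetoacetate.

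MCCC2 was the only member lower by a log2 difference of 1 or more with every compound. DBT and BCKDHB were below their vehicles in every pair, by less. The median change of all genes was also negative in every pair (-0.07 with SR2211, -0.14 with XY011 and -0.02 with ENZ). The share of all genes below their vehicles in every pair was not counted. IVD and AUH, the genes on either side of MCCC2 in the leucine branch, lay nearer to their vehicles than MCCC2 did. BCAT1, the cytosolic aminotransferase gene, was higher with SR2211 and XY011 and close to its vehicle with ENZ. No other member reached a log2 difference of 1 in either direction in any pair. Changes are log2((treated + 1)/(vehicle + 1)) on the deposited scale, and a gene is called higher or lower at 1 or more in either direction. At that size 10.9% of all genes were called with SR2211, 20.8% with XY011 and 8.37% with ENZ. Where changes are listed without compound names, they follow the order SR2211, XY011, ENZ. With 1 library per group and nothing that names separate cultures, no difference has a replicate check. In bulk RNA, fewer cells with a transcript and less transcript per cell cannot be told apart.

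MCCC2 (Entrez 64087, chromosome 5) encodes the beta subunit of the carboxylase, which carries the carboxyltransferase activity. Its level was 8.15 RPKM with SR2211, against 48.6 RPKM in the SR2211 vehicle, a log2 change of -2.44. With XY011 it was 1.37 FPKM, against 43.8 FPKM in the XY011 vehicle, a log2 change of -4.24. With ENZ it was 6.93 FPKM, against 28.2 FPKM in the ENZ vehicle, a log2 change of -1.88. The treated libraries thus lay between 1.37 and 8.15, and the vehicles between 28.2 and 48.6, in tables that were scaled separately. The share of all genes separated in this way was not counted, and MCCC2 was picked with these values known. Expressed as a share of the vehicle, 16.8% of the level was left with SR2211, 3.12% with XY011 and 24.6% with ENZ.

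Whole read numbers could be read back from the SR2211 experiment. The smallest numbers that match the MCCC2 values are 82 reads with SR2211 and 491 in its vehicle, at 8.16 M and 8.20 M mapped reads. The ratio was 0.168, with an exact 95% interval of 0.131 to 0.212 that covers counting error only and says nothing of the spread between cultures. Larger multiples of both numbers would give the same ratio with a narrower interval. Of the 9 members, BCAT2 (0.724 to 1.01) and BCKDHB (0.733 to 1.11) had intervals that include a ratio of 1 in this pair. These intervals also rest on the smallest read numbers, so a larger multiple could take the upper limit of BCAT2 below 1.

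Among all genes at 1 or more in either library, the MCCC2 change was the 16th lowest of 12165 with SR2211, the 4th lowest of 12636 with XY011 and the 189th lowest of 19291 with ENZ. Of 11138 such genes in all 3 tables, 100 (0.898%) were lower by the size rule in every pair and 57 (0.512%) were higher. Ranked by the weakest of its 3 changes, MCCC2 was the 14th lowest of the 11138. These places describe how the gene came to be chosen.

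**Figure D1:**
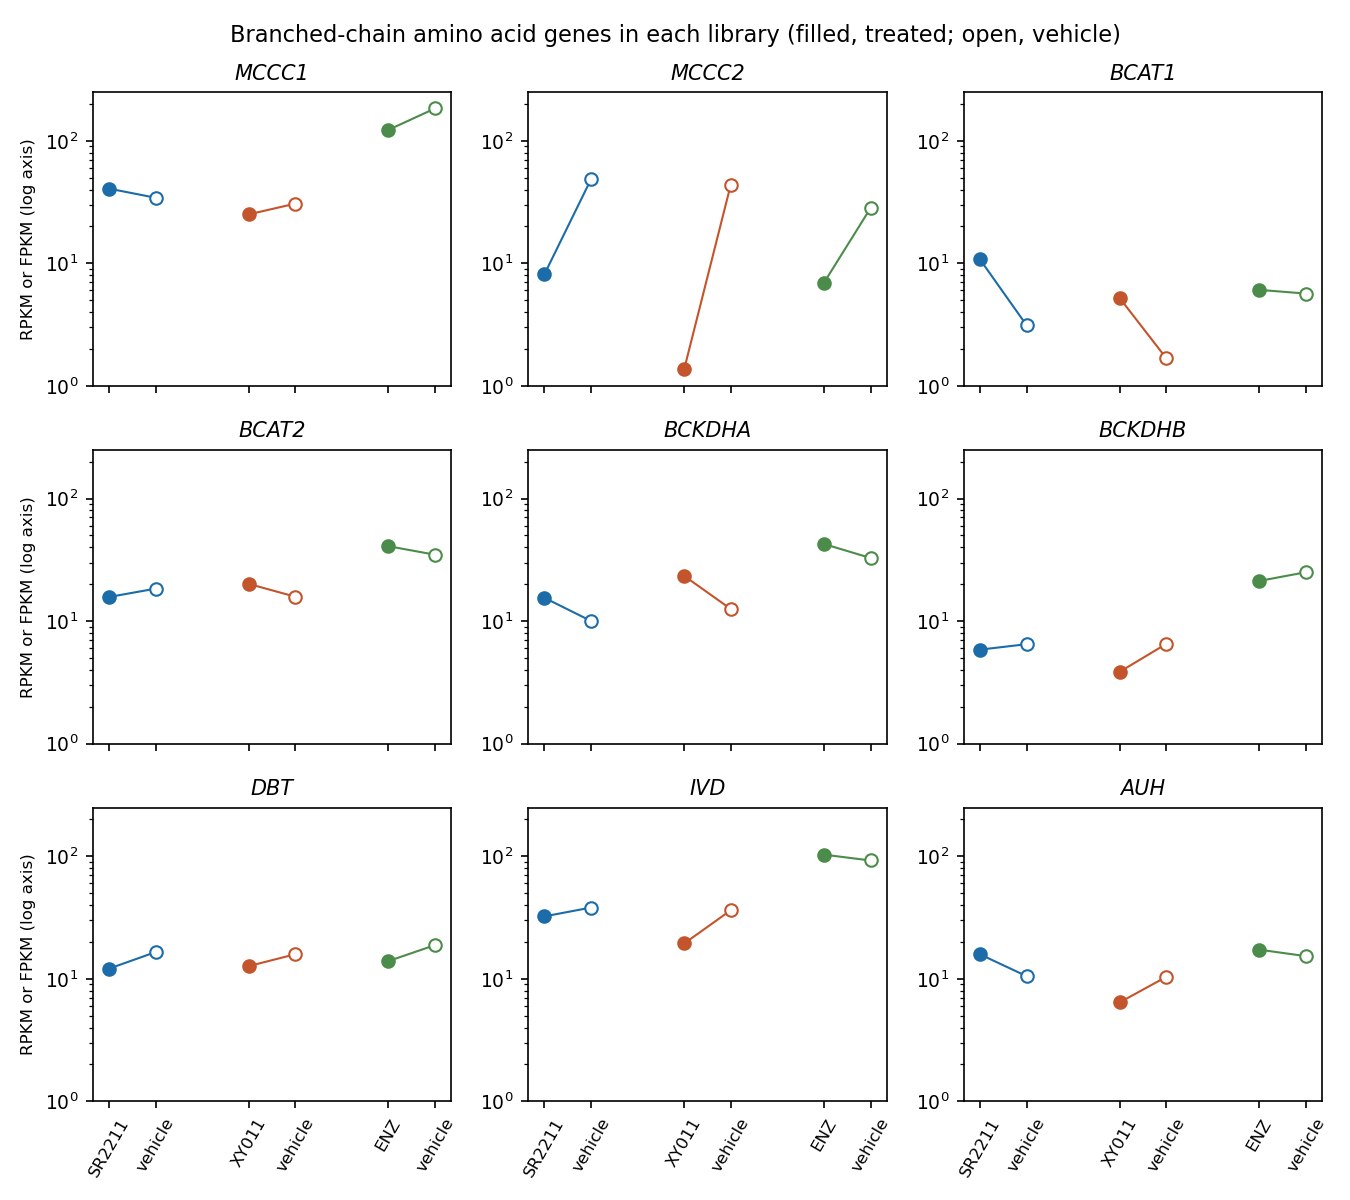
Level of each of the 9 genes in the 6 libraries (RPKM in the SR2211 experiment and FPKM in the others, log axis), with filled points for treated libraries and open points for their vehicles, 1 library each. MCCC2 lies at 1.37 to 8.15 in treated libraries and at 28.2 to 48.6 in vehicles, while BCAT1 is higher than its vehicle with SR2211 and XY011.

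MCCC1 (Entrez 56922) encodes the alpha subunit, which carries the biotin of the same carboxylase. It was at 40.7 RPKM with SR2211 and 34.3 RPKM in vehicle (log2 0.24). In the XY011 pair it was at 25.1 FPKM with XY011, against 30.7 FPKM in vehicle (log2 -0.28), and with ENZ at 123 FPKM, against 184 FPKM in vehicle (log2 -0.58). The changes were mixed in sign, and none reached the size rule. The MCCC1 interval in the SR2211 pair ran from 1.07 to 1.31 around a ratio of 1.19, again for counting error alone. Reads of the antisense gene MCCC1-AS1, whose exons share 72 bases with those of MCCC1 in GENCODE 29, cannot be told apart here, since no source used here says whether strand was counted. In the ENZ table MCCC1-AS1 was at 0.467 FPKM with ENZ and 0.860 FPKM in vehicle, far below MCCC1.

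Within a library, the ratio of the 2 subunit genes does not depend on depth. MCCC2 stood at 0.200 times MCCC1 with SR2211 and at 1.42 times in its vehicle. With XY011 the ratio was 0.0546, against 1.43 in vehicle. With ENZ it was 0.0565, against 0.153 in vehicle. So MCCC2 exceeded MCCC1 in the vehicles of the SR2211 and XY011 experiments and lay below it in every treated library. The ENZ vehicle stood apart: MCCC1 there was 5.36 times the SR2211 vehicle and 5.99 times the XY011 vehicle, where the median gene was at 1.42 and 1.44 times. MCCC2 in the ENZ vehicle was at 0.580 and 0.643 times those same vehicles, so both genes differed between the ENZ vehicle and the other vehicles. Of the 8467 and 8161 genes compared, 96.8% and 96.4% had a lower ratio than MCCC1, and 6.63% and 10.1% a lower ratio than MCCC2. Such shifts were not limited to these genes: BCKDHB was at 3.87 and 3.85 times, while AUH, at 1.46 and 1.48 times, lay near the median gene. Why the vehicles differed for these genes was not tested.

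**Figure D2:**
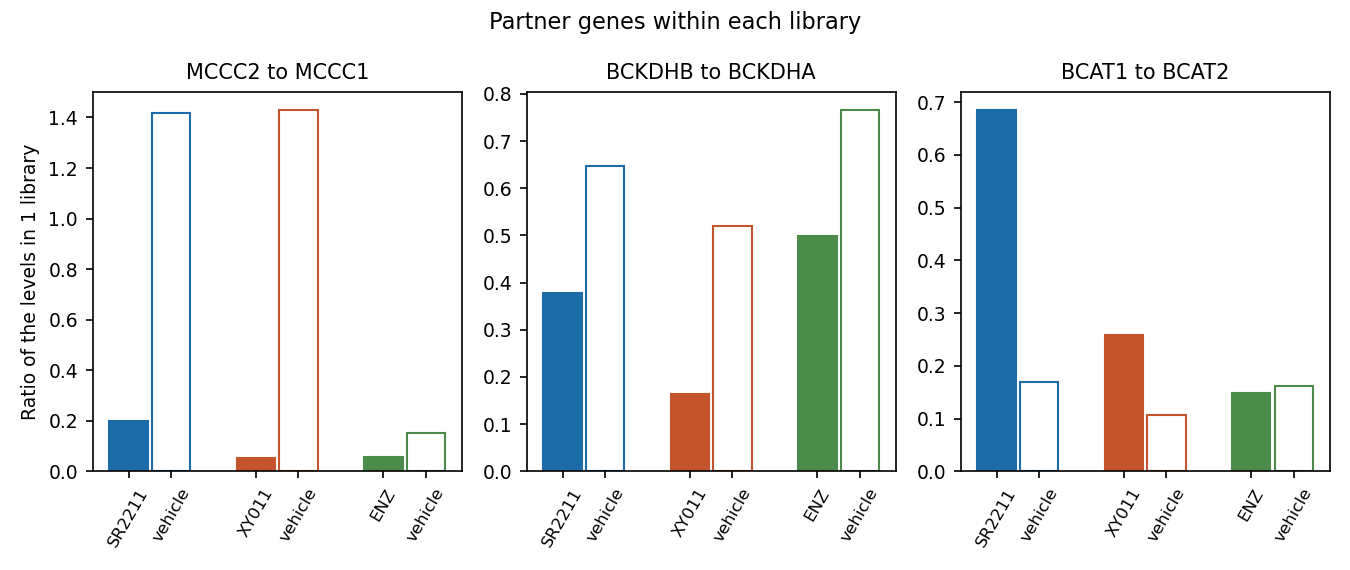
Ratio of the levels of 2 partner genes within each library, MCCC2 to MCCC1, BCKDHB to BCKDHA and BCAT1 to BCAT2, with filled bars for treated libraries and open bars for their vehicles. MCCC2 to MCCC1 is at 0.200, 0.0546 and 0.0565 in the treated libraries, against 1.42, 1.43 and 0.153 in their vehicles.

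The other enzymes of the leucine branch were nearer to their vehicles. IVD, which makes the substrate of the carboxylase, was at 32.3 RPKM with SR2211 and 38.2 RPKM in vehicle (log2 -0.23). It was at 19.4 FPKM with XY011 and 36.3 FPKM in vehicle (log2 -0.87), and at 103 FPKM with ENZ and 92.4 FPKM in vehicle (log2 0.16). The XY011 value is the lowest of the 3 changes and still above the size rule's limit of -1. AUH, the hydratase that takes the product of the carboxylase onward, was at 15.8 RPKM with SR2211 and 10.5 RPKM in vehicle (log2 0.55). AUH with XY011 was at 6.42 FPKM, against 10.4 FPKM in vehicle (log2 -0.62), and with ENZ at 17.3 FPKM, against 15.3 FPKM in vehicle (log2 0.17). AUH therefore lay above its vehicle with SR2211 and below it with XY011, at sizes that did not reach the rule.

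BCAT1 and BCAT2 encode the cytosolic and the mitochondrial aminotransferase that open the pathway, in a reaction that runs both ways. BCAT1 (Entrez 586) was at 10.8 RPKM with SR2211, against 3.12 RPKM in vehicle (log2 1.51). BCAT1 with XY011 was at 5.20 FPKM, against 1.68 FPKM in vehicle (log2 1.21), and with ENZ at 6.07 FPKM, against 5.66 FPKM in vehicle (log2 0.09). The smallest read numbers for the SR2211 pair were 851 with SR2211 and 248 in vehicle, a ratio of 3.45 with a counting interval of 2.99 to 3.99. BCAT1 was the lowest of the 9 genes in every vehicle, and the SR2211 and XY011 vehicles differed 1.86-fold for it, more than for any other member (0.798 to 1.16 for the other 8). Its exons share 209 bases or fewer with each of several antisense or unclassified genes in GENCODE 29, out of 11775.

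BCAT2 was at 15.7 RPKM with SR2211 and 18.4 RPKM in vehicle, at 20.1 FPKM with XY011 and 15.8 FPKM in vehicle, and at 40.8 FPKM with ENZ and 34.8 FPKM in vehicle. Its log2 changes were -0.21, 0.33 and 0.22, so it did not share the BCAT1 change by the size rule. The ratio of BCAT1 to BCAT2 was 0.685 with SR2211 and 0.170 in vehicle, and 0.259 with XY011 and 0.106 in vehicle. With ENZ the ratio was 0.149, against 0.163 in vehicle. BCAT2 was the more abundant aminotransferase transcript per length in all 6 libraries.

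The genes of the keto acid dehydrogenase complex showed smaller changes. BCKDHA, the alpha subunit of its decarboxylase, was at 15.5 RPKM with SR2211 and 10.0 RPKM in vehicle (log2 0.58). It was at 23.3 FPKM with XY011 and 12.5 FPKM in vehicle (log2 0.85), and at 42.5 FPKM with ENZ and 32.7 FPKM in vehicle (log2 0.37). All 3 treated libraries were above their own vehicles, but none by the size rule. A neighbouring protein-coding gene model (AC011462.1) shares 1660 of 2602 exon bases of BCKDHA on the same strand in GENCODE 29, so the BCKDHA level is uncertain.

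BCKDHB, the beta subunit of the same decarboxylase, was at 5.84 RPKM with SR2211 and 6.47 RPKM in vehicle (log2 -0.13). BCKDHB with XY011 was at 3.85 FPKM, against 6.51 FPKM in vehicle (log2 -0.63), and with ENZ at 21.3 FPKM, against 25.04 FPKM in vehicle (log2 -0.23). The ratio of BCKDHB to BCKDHA was lower than in vehicle in every pair, at 0.378 with SR2211 and 0.647 in vehicle, 0.165 with XY011 and 0.519 in vehicle, and 0.4996 with ENZ and 0.766 in vehicle. DBT, the transacylase core of the complex, had changes of -0.42 with SR2211, -0.30 with XY011 and -0.41 with ENZ. It was at 12.1 RPKM with SR2211 and 16.5 RPKM in vehicle, at 12.7 FPKM with XY011 and 15.9 FPKM in vehicle, and at 14.0 FPKM with ENZ and 18.8 FPKM in vehicle. Of the 9 genes DBT had the most even deposited level over the 3 vehicles, with the highest 1.19 times the lowest. These tables were scaled separately, and the median gene of the ENZ vehicle was at 1.42 and 1.44 times the SR2211 and XY011 vehicles. AUH, at 1.46 and 1.48 times, lay nearer to that than DBT, at 1.14 and 1.19 times.

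**Figure D3:**
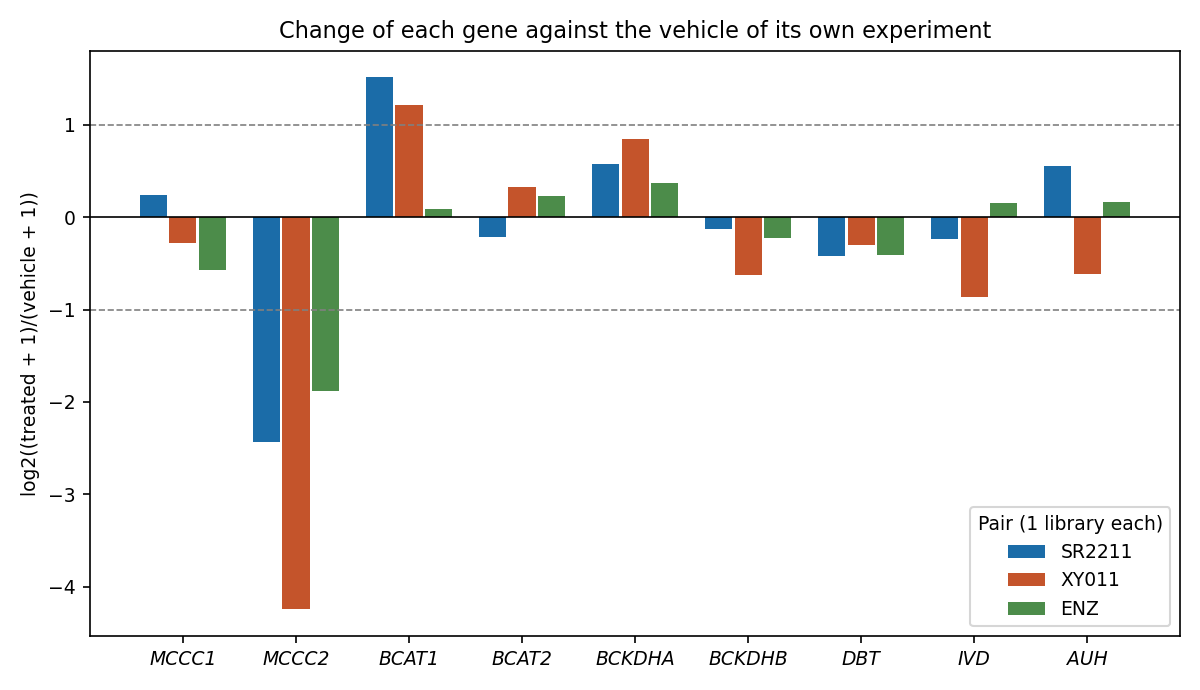
Log2 change of each of the 9 genes against the vehicle of its own experiment, 1 pair of libraries per compound, with dashed lines at the size rule of 1 in either direction. MCCC2 lies below -1 in all 3 pairs (-2.44, -4.24 and -1.88), BCAT1 above 1 with SR2211 (1.51) and XY011 (1.21), and every other bar lies between the dashed lines.

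Counted by the size rule, 1 member was higher and 1 lower with SR2211, where 5.10% and 5.75% of all 12165 genes were called in those directions (10.9% in either direction). With XY011 the same 2 members were called, 1 in each direction, beside 7.58% higher and 13.2% lower of 12636 genes (20.8% in either). With ENZ no member was higher and 1 was lower, beside 3.68% and 4.69% of 19291 (8.37% in either). The median change of the 9 members was -0.13 with SR2211, -0.30 with XY011 and 0.09 with ENZ, and that of all genes -0.07, -0.14 and -0.02. As a group, then, the members lay near the median gene, and nothing is read from these counts, since the choice of members used the same pairs. Centring the SR2211 pair on its median gene moved the share of increases among all called genes from 47.0% to 57.2%, and quantile scaling moved that of the XY011 pair from 36.5% to 49.6%. In the XY011 pair the median gene used for centring lay at -0.12 on the log2 scale, so centring raised the changes of that pair.

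SR2211 and XY011 were used at the same dose and time, so their changes can be set side by side for 9 genes, with 1 pair each and no test or interval of the difference. Between the SR2211 and XY011 vehicles themselves, 1381 of 12516 genes (11.0%) lay past the size rule, a share like the 10.9% called with SR2211. The log2 change with XY011 minus that with SR2211 was -1.80 for MCCC2 and -1.16 for AUH. For the other 7 members the changes lay less than 1 apart, the nearest being DBT (0.12) and BCKDHA (0.27). BCAT1 differed by -0.30, MCCC1 by -0.52, BCKDHB by -0.50, IVD by -0.64 and BCAT2 by 0.54. In all, 6 of 9 members had a lower change with XY011, and 3 (MCCC1, BCAT2 and AUH) had opposite signs with these compounds. Neither these counts nor that of members lying 1 or more apart was made over all genes. The median change of all genes was itself lower with XY011 (-0.14) than with SR2211 (-0.07). The units differ between these experiments. ENZ was given at a higher dose, so its values stand beside the others with no comparison of compounds.

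Promoters of MCCC2 and BCAT1 are shown because these are the members called by the size rule. Windows of 250 bases before to 50 after an annotated start were taken from RefSeq (GRCh38.p14), which gave 14 windows for 8 of the 9 members. They were searched on both strands for AGGTCA, a half-site of nuclear receptors such as the RORs, for AGAACA, a half-site of steroid receptors, and for TGATGNAA, a form bound by ATF4 with C/EBP partners. Capitals mark a match, and the MCCC2 window held none.
MCCC2 (chr5:71587090-71587389, plus strand): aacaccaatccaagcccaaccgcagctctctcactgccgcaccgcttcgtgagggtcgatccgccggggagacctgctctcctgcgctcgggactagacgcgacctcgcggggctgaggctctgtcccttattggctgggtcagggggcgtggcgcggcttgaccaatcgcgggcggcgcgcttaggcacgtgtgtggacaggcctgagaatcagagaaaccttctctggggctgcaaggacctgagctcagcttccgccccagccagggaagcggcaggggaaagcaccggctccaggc
BCAT1 (chr12:24949052-24949351, minus strand): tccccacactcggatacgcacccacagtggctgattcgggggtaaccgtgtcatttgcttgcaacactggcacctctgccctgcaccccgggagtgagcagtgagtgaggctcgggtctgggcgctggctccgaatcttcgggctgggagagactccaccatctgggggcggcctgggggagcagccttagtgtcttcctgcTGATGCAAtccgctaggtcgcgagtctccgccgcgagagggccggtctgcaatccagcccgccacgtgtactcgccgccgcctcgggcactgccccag

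The BCAT1 match is TGATGCAA, with its first base at position -48 from the start, on the strand of the gene. Matches of TGATGNAA occur in 3.62% of 35116 windows over all genes, those of AGGTCA in 13.8% and those of AGAACA in 14.8%. Counted by gene, the shares are 4.46%, 16.5% and 17.5% of 27305 genes. BCAT1 has 5 windows, and those at other starts held 3 further matches, 1 of AGGTCA and 2 of AGAACA. MCCC2 has 1 window, so fewer bases were searched for it than for BCAT1. The windows of MCCC1, BCKDHA, BCKDHB, DBT, IVD and AUH held none of the 3 motifs. A match describes letters in a window, and these data hold no measure of binding there.

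Of the 3 protein-coding neighbours on each side of MCCC2 on chromosome 5, LOC124900993 and LOC124900994 were not listed. BDP1, which encodes a subunit of a transcription factor of RNA polymerase III and lies next to MCCC2, was at 17.03 RPKM with SR2211 and 26.2 RPKM in vehicle. Its log2 changes were -0.60, -0.53 and -0.30 with SR2211, XY011 and ENZ. On the other side, CARTPT, which encodes a neuropeptide, was listed only in the XY011 table, at or under 0.25 FPKM. MAP1B, a microtubule-associated protein gene, was at 58.6 RPKM with SR2211 and 3.97 RPKM in vehicle, and its log2 changes were 3.58, 2.99 and 0.77. MRPS27, a mitochondrial ribosomal protein gene, lay at -0.20, -0.29 and -0.28. None of BDP1, MAP1B and MRPS27 was lower by the size rule in any pair, and MAP1B was higher with SR2211 and XY011.

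Among the 11138 genes, those whose 3 changes lay nearest to MCCC2 by Euclidean distance were AGR2, TM4SF1, FKBP5, TUBA3D and AADAT. AGR2, a disulfide isomerase gene of secretory epithelium, lay at a distance of 0.55, with changes of -2.39 with SR2211, -3.95 with XY011 and -2.34 with ENZ. TM4SF1, a membrane protein gene, lay at 0.74 (-3.17, -4.35 and -1.93), and FKBP5, a co-chaperone gene known for its androgen induction, at 0.78 (-2.50, -3.70 and -2.44). AADAT, which encodes a mitochondrial aminotransferase of lysine and tryptophan breakdown, lay at 0.98 (-2.35, -3.26 and -1.91). It was at 18.5 RPKM with SR2211 and 98.1 RPKM in vehicle. TUBA3D lay at 0.94, stood with XY011 at the value given to genes without reads, and belongs to a family with near-identical copies, so its value is uncertain. Likeness over 3 pairs of libraries is a description of these values alone.

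The rest of the pathway was read from 46 further genes in 8 lists, written with earlier results known, of which 44 were measured in every pair. With SR2211, 4 were higher and 1 lower by the size rule (11.4% called, beside 10.9% of all genes). With XY011, 4 were higher and 7 lower (25%, beside 20.8%), and with ENZ none was higher and 1 lower (2.27%, beside 8.37%). The XY011 split turned to 5 higher and 4 lower both when the pair was centred on its median gene and under quantile scaling, where MMACHC, SLC25A44 and ETFB were no longer called and SLC7A5 was called higher. The same scalings gave 6 higher and 1 lower, and 5 higher and 1 lower, with SR2211. The medians were 0.12, -0.15 and 0.06, and none of the 44 had a change as low as that of MCCC2 with ENZ, in any pair.

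**Figure D4:**
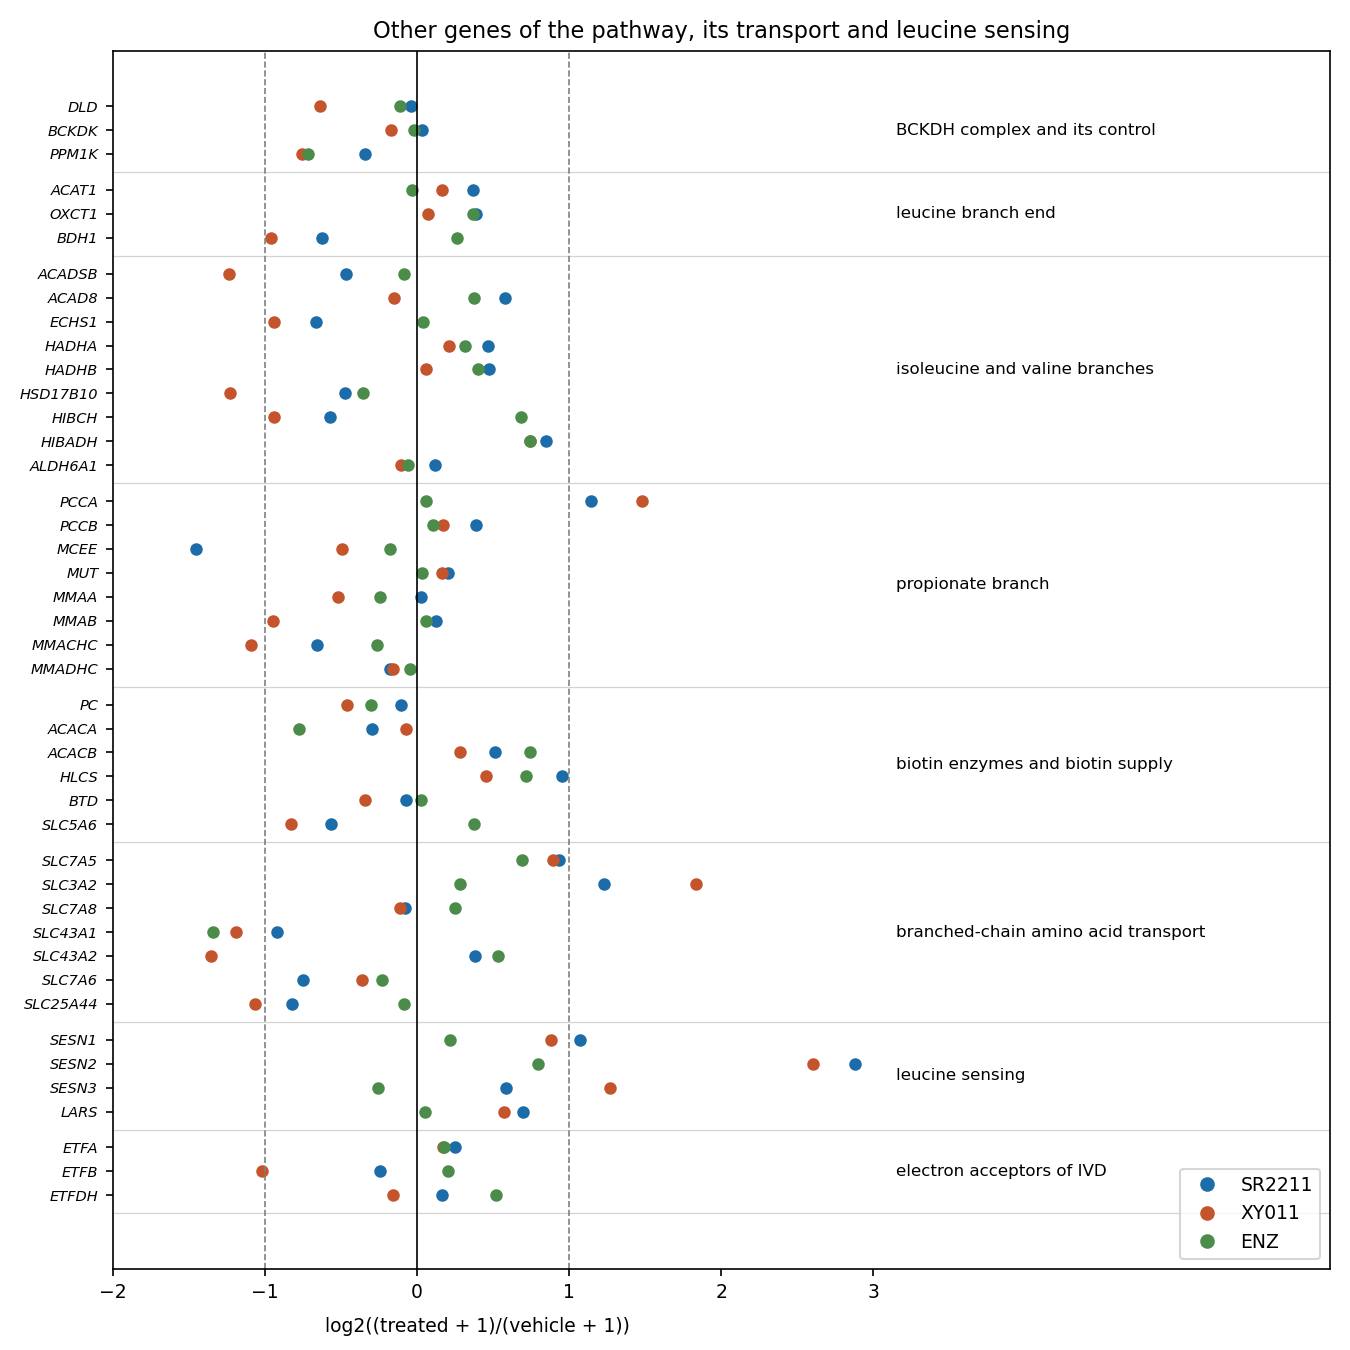
Log2 change of further genes of the pathway, of amino acid transport and of leucine sensing, grouped by list, with a point for each compound against its own vehicle and dashed lines at the size rule. SESN2 lies highest, at 2.88 with SR2211 and 2.60 with XY011, and MCEE lowest, at -1.45 with SR2211.

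Among carboxylases that, like MCCC, carry biotin, PCCA was higher with SR2211 and XY011 but not with ENZ. MCCC2 was lower with all of these compounds. This gene, for the biotin-bearing subunit of propionyl-CoA carboxylase, was at 23.0 RPKM with SR2211 and 9.89 RPKM in vehicle (log2 1.14). PCCA with XY011 was at 28.2 FPKM, against 9.49 FPKM in vehicle (log2 1.48), and with ENZ at 22.1 FPKM, against 21.2 FPKM in vehicle (log2 0.06). Its partner PCCB had changes of 0.39, 0.17 and 0.10. HLCS, which attaches biotin to these enzymes, had the largest change of the biotin list, 0.96 with SR2211 (15.0 RPKM, against 7.23 RPKM in vehicle), and none of the 6 genes of that list was called, although HLCS reached 1.05 with SR2211 after centring. In the propionate branch, MCEE, the epimerase gene, was at 1.40 RPKM with SR2211 and 5.57 RPKM in vehicle (log2 -1.45), and at -0.50 and -0.18 with XY011 and ENZ. MMACHC, a cobalamin-handling gene, was lower with XY011 (12.6 FPKM, against 28.1 FPKM in vehicle, log2 -1.09, or -0.99 after centring).

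The isoleucine and valine branches had 2 of 9 genes lower with XY011, beside 13.2% of all genes, and none called with SR2211 or ENZ. ACADSB, the dehydrogenase of the isoleucine branch, was at 7.05 FPKM with XY011 and 17.9 FPKM in vehicle (log2 -1.23). HSD17B10, a later dehydrogenase of that branch, was at 36.2 FPKM with XY011 and 86.4 FPKM in vehicle (log2 -1.23). ETFB, a subunit of the electron carrier that accepts electrons from IVD, was at 28.4 FPKM with XY011 and 58.6 FPKM in vehicle (log2 -1.02, or -0.91 after centring). DLD, BCKDK and PPM1K, the shared dehydrogenase of the complex, its inhibitory kinase and its activating phosphatase, were not called in any pair, and the largest change was that of PPM1K with XY011 (-0.75). At the end of the leucine branch none of 4 measured genes was called. Of these, the ketone body gene BDH1 had the largest change, -0.96 with XY011 (12.5 FPKM, against 25.2 FPKM in vehicle).

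Transporters of branched-chain amino acids were mixed in direction. SLC3A2, the heavy chain of the large neutral amino acid exchanger, was at 158 RPKM with SR2211 and 66.9 RPKM in vehicle (log2 1.23). SLC3A2 with XY011 was at 199 FPKM, against 55.4 FPKM in vehicle (log2 1.83), and with ENZ its log2 difference was 0.28. Its light chain SLC7A5 had changes of 0.93, 0.89 and 0.69, under the size rule in each pair, but it reached 1.03 with SR2211 and 1.01 with XY011 after centring. SLC43A1, a leucine-carrying facilitative transporter, was at 44.4 RPKM with SR2211 and 84.8 RPKM in vehicle (log2 -0.92). With XY011 it was at 48.0 FPKM, against 111 FPKM in vehicle (log2 -1.19), and with ENZ at 65.1 FPKM, against 167 FPKM in vehicle (log2 -1.34). SLC43A1 was the 1 gene of the 44 called with ENZ. SLC43A2, its relative, was at 2.24 FPKM with XY011 and 7.29 FPKM in vehicle (log2 -1.36). SLC25A44, the mitochondrial carrier, was at 15.6 FPKM with XY011 and 33.8 FPKM in vehicle (log2 -1.07, or -0.96 after centring).

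Leucine sensing genes had 2 of 4 higher with SR2211, 2 of 4 with XY011 and none with ENZ, beside 5.10%, 7.58% and 3.68% of all genes. SESN2, a leucine sensor upstream of mTORC1, was at 53.2 RPKM with SR2211 and 6.36 RPKM in vehicle (log2 2.88). SESN2 with XY011 was at 36.3 FPKM, against 5.13 FPKM in vehicle (log2 2.60), and with ENZ at 19.3 FPKM, against 10.7 FPKM in vehicle (log2 0.80). SESN1 was higher with SR2211 (log2 1.07) and at 0.88 with XY011, while SESN3 was higher with XY011 (1.27) and at 0.58 with SR2211. LARS, the leucyl-tRNA synthetase gene, lay at 0.69, 0.57 and 0.05.

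The label of the cells was checked against markers. All 6 luminal epithelium markers, the keratin genes KRT8 and KRT18 among them, were listed in every table, and their summed level was 641 with SR2211 and 1190 in vehicle, 497 with XY011 and 1171 in vehicle, and 719 with ENZ and 1009 in vehicle. KRT8 lay at log2 changes of 0.09, 0.07 and -0.19, and KRT18 at -0.69, -0.82 and -0.40. The luminal sum lay on the same side of its vehicle as MCCC2 in each pair, and its part in the MCCC2 values was not tested. The other lists were only partly listed, and an unlisted gene was not measured. Of 3 basal markers, 1 was listed in the SR2211 and XY011 tables and 2 in the ENZ tables, and their sum was at or under 4.49 in every library, with TP63 not listed in any. Of 3 endothelial markers, 3, 2 and 1 were listed, with sums at or under 0.989. Of 4 immune markers, 1 was listed in each experiment, CD14 with SR2211 and ENZ and PTPRC with XY011, at or under 0.328 in every library and at 0 for CD14 with ENZ. Of 3 neuroendocrine markers, 3, 2 and 2 were listed, and they summed to 4.40 with SR2211 and 2.68 in vehicle, 3.23 with XY011 and 1.67 in vehicle, and 11.6 with ENZ and 10.3 in vehicle. Their directions were mixed: ENO2 had log2 changes of 0.78, 1.02 and 0.16, and SYP of -0.08, -0.40 and 0.11. CHGA, listed only in the SR2211 tables, lay at -0.22. Of 5 fibroblast markers, 3, 1 and 4 were listed, and the ENZ tables had a sum of 45.5 with ENZ and 29.1 in vehicle, of which COL1A1 made up 34.8 and 14.1 FPKM. The others listed there did not share that rise: DCN was at 4.34 FPKM with ENZ and 8.94 FPKM in vehicle (log2 -0.90). COL1A2 lay at 0.08 and COL3A1 at -0.08. The fibroblast sum was at or under 5.82 in the SR2211 and XY011 experiments. The part of these markers in the members' values was not tested.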

How the data were processed

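RNA-seq was analysed for 6 C4-2B libraries, 1 per group. Poly(A) libraries were made with a TruSeq kit, per the labels' protocols. The SR2211 tables hold RPKM (reads scaled by gene length and by all mapped reads) deposited by the authors. The XY011 and ENZ tables hold deposited FPKM (the same for fragments), in the XY011 tables rounded to 2 decimals. Per the submitters' processing notes, the named builds were GRCh37 and hg19 and the named tools Cufflinks, Cuffdiff, Bowtie and BWA, with no roles given. Their versions, the annotation and the use of strand were not given in the sources used here. Genes without reads stood at 0.01 (SR2211), 0.001 (XY011) or 0 (ENZ), and the ENZ table holds no gene at 0 in its vehicle.

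Tables were matched by Entrez identifier, and ENZ by current or older symbol, in Python 3.11.15 with pandas 2.3.3. Symbols on several ENZ lines were summed, and small RNA genes were left out of counts over all genes. Changes used a pseudocount of 1, which understates changes of low genes, and genes at 1 or more in either library were counted. The size rule has no p-value. Members, lists and the rule for named genes were chosen with earlier results of these data known. The rule names all members, further pathway genes called in any pair or largest in their list, the 3 protein-coding neighbours on each side of MCCC2, and the 5 genes nearest to it. SR2211 depths came from microRNA genes of known length, where 96.2% of 26 (SR2211) and 100% of 17 (vehicle) gave whole reads within 0.01 read. Whole reads at lengths up to 20000 bases were then found for 99.9% of 12141 genes. Depth in the XY011 and ENZ experiments is unknown, so no interval is given there. The calculations were tested on simulated data. Alternatives were other pseudocounts, scalings, filters and size thresholds. Some genes of the lists and markers are counted but not reported here by name.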

Additional observations from a re-analysis of the deposited data

Results flagged for a closer look

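Genes are given here when 2 pairs had log2 changes of opposite sign, each of 0.5 or more in size. With 1 library per group the differences were not tested, and ENZ was given at another dose, so its values only stand beside the others. AUH had a log2 change of 0.55 with SR2211 and of -0.62 with XY011. HIBCH, a hydrolase gene of the valine branch, had log2 changes of -0.57 with SR2211, -0.94 with XY011 and 0.68 with ENZ. It was at 4.23 FPKM with XY011 and 9.02 FPKM in vehicle, and at 41.2 FPKM with ENZ and 25.3 FPKM in vehicle. SLC43A2 had log2 changes of -1.36 with XY011 and 0.53 with ENZ.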

How the results depend on the processing

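No paired analysis was possible because each group has 1 library, and no library could be left out. All 108 values of the 9 members under other pseudocounts, centring and quantile scaling kept their direction and their side of the size rule. MCCC2 ranged from -2.57 to -2.35 with SR2211, from -4.99 to -4.09 with XY011 and from -2.02 to -1.85 with ENZ, and BCAT1 from 1.51 to 1.78 with SR2211 and from 1.21 to 1.62 with XY011.

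Counts of called genes moved with the settings, as their construction makes them. Pseudocounts of 0.1 and 0.01 gave 2020 and 2101 genes with SR2211 (1320 at a pseudocount of 1). They gave 3606 and 3718 with XY011 (2623) and 2772 and 2925 with ENZ (1614). With XY011, each of them called 14 of the 44 further pathway genes (4 higher and 10 lower), beside 11 at a pseudocount of 1. A threshold of 1.5-fold gave 3771, 5661 and 4636 genes with SR2211, XY011 and ENZ (2623 with XY011 at the size rule), and a log2 threshold of 1.5 gave 405, 912 and 502. Requiring 5 or more in either library gave 1085 with SR2211, 1990 with XY011 and 992 with ENZ. Among the 44 further pathway genes, the 1.5-fold threshold called 15, 22 and 9, and the log2 threshold of 1.5 called 1, 2 and 0, beside 5, 11 and 1. Among members with XY011, those thresholds called 6 and 1, beside 2, and BCAT1 (1.21) was the call lost at the higher one. Unknown depth limits precision in the XY011 and ENZ experiments.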
